A study of Arabidopsis thaliana with 36 samples.

Results

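The WRKY genes of Arabidopsis thaliana encode plant transcription factors that carry a DNA-binding domain named after its conserved heptapeptide. They were followed here through roots that met bacterial flagellin peptide, Fe deficiency, or both. Of 59 listed WRKY loci, 57 met the rule of at least 10 counts summed over all 36 libraries, out of 24532 loci in the count table. WRKY34 (AT4G26440), which had 0 counts, and WRKY12 (AT2G44745), which had 2, did not meet it. Of the 57, 55 had enough counts to be tested; WRKY50 (AT5G26170, 147 counts in all) and WRKY55 (AT2G40740, 105 counts) did not.

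The libraries were made from roots of 7-day-old seedlings moved for 24 h into liquid medium. Media held 75 µM Fe (+Fe) or 50 µM of the Fe chelator FerroZine (−Fe), each with or without 100 nM flg22, the flagellin peptide perceived by the receptor kinase FLS2. The genotypes were fls2, which lacks that receptor and whose allele is not given in the sources used here, UBQ10::mCitrine-IMA1 (IMA1ox), and wild-type Col-0 (WT). IMA1ox expresses the small Fe-signalling peptide IMA1 fused to a fluorescent protein from the constitutive UBQ10 promoter, so its excess is not limited to the cells that make IMA1 in WT. Each of the 12 groups (genotype by Fe by flg22) held 3 libraries, and each library came from a pool of about 15 roots, so that p-values measure the spread between pools.

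WRKY proteins bind the W box, a short DNA motif common in promoters of defence genes and of the WRKY genes themselves. In leaves, flg22 perception activates mitogen-activated protein (MAP) kinases and calcium-dependent kinases, which phosphorylate some WRKY proteins and are followed by a rise in the transcripts of many WRKY genes. The family is divided by the number of WRKY domains and the type of zinc finger into groups I, II and III. Group II is divided further into IIa to IIe. Other members act in phosphate uptake, senescence, root development and, for WRKY46, in Fe translocation.

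All 59 coding sequences held the code for the signature heptapeptide. The 12 loci of group I held it in 2 copies. The signatures of WRKY33, WRKY53, WRKY51 and WRKY50 are shown because WRKY33 and WRKY53 recur in the results, while WRKY51 and WRKY50 carry the lysine variant of the signature that is known for both. Capitals mark the sixth codon, and each run reads 5′ to 3′ on the coding strand of the TAIR10.1 assembly.
WRKY33 first signature: tggagaaagtacggaCAAaaa
WRKY33 second signature: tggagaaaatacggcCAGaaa
WRKY53 signature: tggagaaaatatggtCAAaaa
WRKY51 signature: tggaggaagtatggcAAGaaa
WRKY50 signature: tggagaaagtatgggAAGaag

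The 300 bases upstream of each annotated gene start were searched for the W box letters TTGACC and TTGACT on both strands. At least 1 match was found for 24 of 59 WRKY genes (40.7%), against 32.3% of 27443 protein-coding genes. At least 2 matches were found for 10 WRKY genes (16.9%), against 7.91% of all genes. WRKY30 and WRKY33 held 3 matches each, and 1.57% of all genes held at least 3. The promoters of WRKY30, WRKY33, WRKY41 and WRKY53 are shown because these genes carry several matches and are among those followed through every comparison. Capitals mark the matches, and positions are those of TAIR10.1, whose nuclear chromosomes have the lengths of the TAIR10 build named in the submitters' processing notes. A match describes the letters and does not show binding.
WRKY30, chr5:8154711-8155010 (- strand): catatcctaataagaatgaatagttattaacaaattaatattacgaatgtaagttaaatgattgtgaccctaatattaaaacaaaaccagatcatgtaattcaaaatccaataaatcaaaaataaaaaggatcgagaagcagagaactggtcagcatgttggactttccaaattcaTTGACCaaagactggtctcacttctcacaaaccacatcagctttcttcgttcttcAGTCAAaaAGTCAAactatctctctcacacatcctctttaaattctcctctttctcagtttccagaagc
WRKY33, chr2:16107935-16108234 (+ strand): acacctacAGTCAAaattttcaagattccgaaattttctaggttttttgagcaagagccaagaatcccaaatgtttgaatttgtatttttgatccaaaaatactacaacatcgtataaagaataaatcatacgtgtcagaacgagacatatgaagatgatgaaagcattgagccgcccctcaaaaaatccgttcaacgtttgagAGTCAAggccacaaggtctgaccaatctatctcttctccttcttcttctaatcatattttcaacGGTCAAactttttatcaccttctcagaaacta
WRKY41, chr4:6758798-6759097 (+ strand): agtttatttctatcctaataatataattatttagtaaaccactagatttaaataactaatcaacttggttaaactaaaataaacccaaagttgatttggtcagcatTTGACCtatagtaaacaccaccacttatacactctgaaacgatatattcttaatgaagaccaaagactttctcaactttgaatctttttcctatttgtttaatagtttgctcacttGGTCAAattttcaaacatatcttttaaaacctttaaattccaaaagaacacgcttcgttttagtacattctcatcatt
WRKY53, chr4:12393983-12394282 (- strand): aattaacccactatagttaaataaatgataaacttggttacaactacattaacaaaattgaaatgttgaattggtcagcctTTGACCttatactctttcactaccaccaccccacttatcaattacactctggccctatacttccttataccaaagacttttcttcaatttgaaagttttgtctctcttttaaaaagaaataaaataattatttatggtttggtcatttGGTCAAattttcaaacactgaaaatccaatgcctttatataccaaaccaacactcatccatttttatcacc
WRKY41 and WRKY53 share an unbroken stretch of 19 bases, ttGGTCAAattttcaaaca, which includes 1 of their matches. It ends 62 bases before the start of WRKY41 and 55 bases before that of WRKY53. The longest stretch shared by any other pair of the 4 promoters was 9 to 11 bases.

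The library totals lay between 28130566 and 40903411 counts, and values are given as CPM, counts scaled to the size of each library with trimmed-mean factors. FLS2 had 0 counts in the untreated fls2 libraries, against 122 counts over the 3 WT +Fe libraries and 216 over the 3 WT −Fe libraries. IMA1 stood at 335, 351 and 338 CPM in IMA1ox +Fe, against 1.97, 3.20 and 2.18 CPM in WT +Fe. All 10 root cell type markers were detected in every library. So were all 8 markers of green shoot tissue, which roots should hold at low levels. WT −Fe replicate 3 and IMA1ox −Fe flg22 replicate 1 stood farther from their groups than the other libraries did. Their root-mean-square distances to the group mean were 0.369 and 0.411 on the log2 scale, against 0.238 to 0.334 for the other 34 libraries. In whole-root libraries, fewer cells of a type and less RNA per cell cannot be told apart.

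Per length of transcript, the family spanned a wide range of levels. WRKY65 stood highest, at 92.9 CPM per kb as the mean over 36 libraries. It was followed by WRKY17 at 55.0, WRKY39 at 40.4, WRKY11 at 39.5, WRKY57 at 38.0 and WRKY36 at 37.9 CPM per kb. WRKY33, a group I factor needed for resistance to necrotrophic fungi, stood at 28.5 CPM per kb. The median tested member had 9.07 CPM per kb, 26 members had 10 or more and 6 had less than 1. WRKY71 and WRKY8 had the lowest means over 36 libraries, at 0.307 and 0.348 CPM per kb. WRKY65 and WRKY17 were first and second in each of the 12 groups, while the rest of the order moved with the group. In WT +Fe, WRKY57 was next at 40.1 CPM per kb, and WRKY30 and WRKY41 were lowest at 0.139 and 0.0869. In IMA1ox −Fe flg22, WRKY33 was next, at 50.1 CPM per kb.

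The question of how flg22 moves the family was addressed first in Fe-sufficient WT roots. With flg22, 33 of the 55 members tested were higher and 2 were lower (edgeR quasi-likelihood test, Benjamini-Hochberg adjusted p under 0.05), in a comparison in which 40.1% of all 20354 genes tested were called, 20.8% as higher and 19.4% as lower. The median log2 fold change was 0.30 over the WRKY genes and 0.01 over all genes. Of the 33 that rose, 13 rose at least 2-fold. The family's summed level was 1635 CPM with flg22 (range 1631 to 1639), against 1266 CPM without it (1222 to 1291). The summed level of the 8 green shoot markers was 284.7 CPM with flg22 (233.8 to 322.8), against 191.4 CPM without it (172.8 to 221.7), with 3 of 8 called higher and none at 0 in any library. Of the 10 root markers, 3 were called lower, and the part of either list in the WRKY result was not tested.

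The largest rises were in group III and group IIc. Group III had 4 of 8 tested members higher and 1 lower, with a median log2 fold change of 0.62. WRKY30 (AT5G24110), which pathogens and oxidants induce in leaves, had 6.43, 7.88 and 18.2 CPM with flg22, against 0.200, 0.170 and 0.170 CPM without it. Every flg22 library stood far above every untreated one, and replicate 3 was the highest of the treated ones. The log2 fold change was 5.88 ± 0.55 (adjusted p = 1.2e-08, edgeR), and 5.28 without WT +Fe flg22 replicate 3. Here and below, the value after ± is an approximate standard error, worked back from the F statistic of the same test. WRKY41 (AT4G11070), known also from seed dormancy, had 2.57, 2.50 and 2.42 CPM with flg22, against 0.143, 0.136 and 0.0283 CPM without it. The treated libraries were close together and did not overlap the untreated ones, and the log2 fold change was 4.58 ± 0.53 (adjusted p = 1.33e-07, edgeR). WRKY53 (AT4G23810), a regulator of leaf senescence, had 10.03, 10.3 and 12.002 CPM with flg22, against 2.54, 2.59 and 2.58 CPM without it. Its groups were tight and apart, and the log2 fold change was 2.07 ± 0.19 (adjusted p = 3.66e-09, edgeR).

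The other group III members moved less. WRKY54 (AT2G40750), which together with WRKY70 restrains senescence, rose by 0.71 ± 0.25 on the log2 scale (adjusted p = 0.0231, edgeR). That call was lost without WT +Fe replicate 1 or 2 or WT +Fe flg22 replicate 1 or 2, where adjusted p reached 0.0838. WRKY70 (AT3G56400), which acts between salicylic acid and jasmonate signalling, had 2.09, 2.17 and 3.02 CPM with flg22, against 4.56, 4.05 and 4.67 CPM without it. All treated libraries were below all untreated ones, and the log2 fold change was −0.87 ± 0.31 (adjusted p = 0.0249, edgeR). This call was lost without WT +Fe replicate 1 or 3 or WT +Fe flg22 replicate 1 or 2, where adjusted p reached 0.0947. WRKY46 (AT2G46400), WRKY38 (AT5G22570) and WRKY62 (AT5G01900) had log2 fold changes of 0.04, 0.52 and 0.15 and did not pass the test.

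In group IIc, 6 of 11 tested members were higher and 1 was lower, with a median log2 fold change of 0.68. WRKY28 (AT4G18170), an activator of the salicylic acid gene ICS1, had 14.5, 14.3 and 13.6 CPM with flg22, against 0.456, 0.749 and 0.992 CPM without it. The treated libraries were all above the untreated ones by a wide margin, and the log2 fold change was 4.27 ± 0.35 (adjusted p = 7.49e-10, edgeR). WRKY45 (AT3G01970) and WRKY75 (AT5G13080), both regulators of phosphate starvation responses, rose by 1.45 ± 0.25 and 1.12 ± 0.21 on the log2 scale. WRKY71 (AT1G29860), known from shoot branching, and WRKY8 (AT5G46350), known from salt and virus responses, were at low levels and rose by 1.72 ± 0.63 and 1.36 ± 0.48. Their calls depended on single libraries: for WRKY71, adjusted p reached 0.134 without any 1 of the WT +Fe replicates or WT +Fe flg22 replicate 2, and for WRKY8 it reached 0.132 without WT +Fe replicate 1 or WT +Fe flg22 replicate 1 or 2. WRKY23 (AT2G47260), an auxin-induced gene of root patterning, had 11.1, 10.8 and 10.8 CPM with flg22, against 13.8, 18.1 and 13.7 CPM without it. The groups did not overlap, the log2 fold change was −0.48 ± 0.14 (adjusted p = 0.00833, edgeR), and the call was lost without WT +Fe replicate 2 (adjusted p = 0.0812).

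Groups IIa and IIb hold proteins with a leucine zipper, among them WRKY18, WRKY40 and WRKY60, which bind each other. WRKY40 (AT1G80840), which with WRKY18 represses defence against powdery mildew, had 4.89, 4.17 and 5.54 CPM with flg22, against 0.998, 0.442 and 1.303 CPM without it. Treated and untreated libraries did not overlap, and the log2 fold change was 2.38 ± 0.40 (adjusted p = 4.31e-05, edgeR). WRKY18 (AT4G31800) rose by 0.54 ± 0.15, while WRKY60 (AT2G25000) had a log2 fold change of 0.09 and did not pass the test. In group IIb, 6 of 8 members rose, led by WRKY61 (AT1G18860) at 1.24 ± 0.13 and by WRKY72 (AT5G15130), a gene of basal defence, at 1.05 ± 0.09. WRKY6 (AT1G62300), a repressor of the phosphate exporter gene PHO1, rose by 0.36 on the log2 scale, to 57.8 CPM with flg22 against 45.1 CPM without it. WRKY42 (AT4G04450), which acts on the same target, had a log2 fold change of 0.20 and did not pass the test.

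In group I, 7 of 11 members were higher and none lower, with a median log2 fold change of 0.21. WRKY33 (AT2G38470), a substrate of MAP kinases that drives synthesis of the phytoalexin camalexin, had 68.7, 69.1 and 84.5 CPM with flg22, against 35.5, 36.4 and 37.3 CPM without it. The lowest treated library stood well above the highest untreated one, and the log2 fold change was 1.03 ± 0.15 (adjusted p = 1.39e-05, edgeR). WRKY25 (AT2G30250) and WRKY26 (AT5G07100), which with WRKY33 act in heat tolerance, rose by 0.31 and 0.57 on the log2 scale. WRKY44 (AT2G37260), a trichome and seed coat regulator, had a log2 fold change of −0.25 and did not pass the test.

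In groups IId and IIe, 4 of 7 members each were higher and none lower. WRKY22 (AT4G01250), placed downstream of the flg22 MAP kinase cascade in leaf cells together with WRKY29, had 8.49, 7.41 and 6.70 CPM with flg22, against 2.20, 2.11 and 1.59 CPM without it. The groups were far apart, and the log2 fold change was 1.94 ± 0.20 (adjusted p = 1.58e-08, edgeR). WRKY29 (AT4G23550) rose by 0.74 ± 0.15. In group IId, WRKY15 (AT2G23320) rose by 0.59, WRKY11 (AT4G31550) by 0.30 and WRKY17 (AT2G24570) by 0.25 on the log2 scale. WRKY11 and WRKY17 are known as negative regulators of basal resistance.

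W box matches can be set beside these classes as a description. At least 1 match stood upstream of 8 of the 13 members that rose at least 2-fold (61.5%), 9 of the 20 that rose less (45%), and 4 of the 22 tested members that did not rise (18.2%). At least 2 matches stood upstream of 5, 3 and 2 members of these classes. Of the 4 members not tested, 3 had at least 1 match (75%). Among the members that rose at least 2-fold, WRKY40, WRKY22, WRKY61, WRKY8 and WRKY71 had 0 matches. The same split was not made over all genes, so whether these shares are particular to the WRKY genes is not known.

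**Figure D1:**
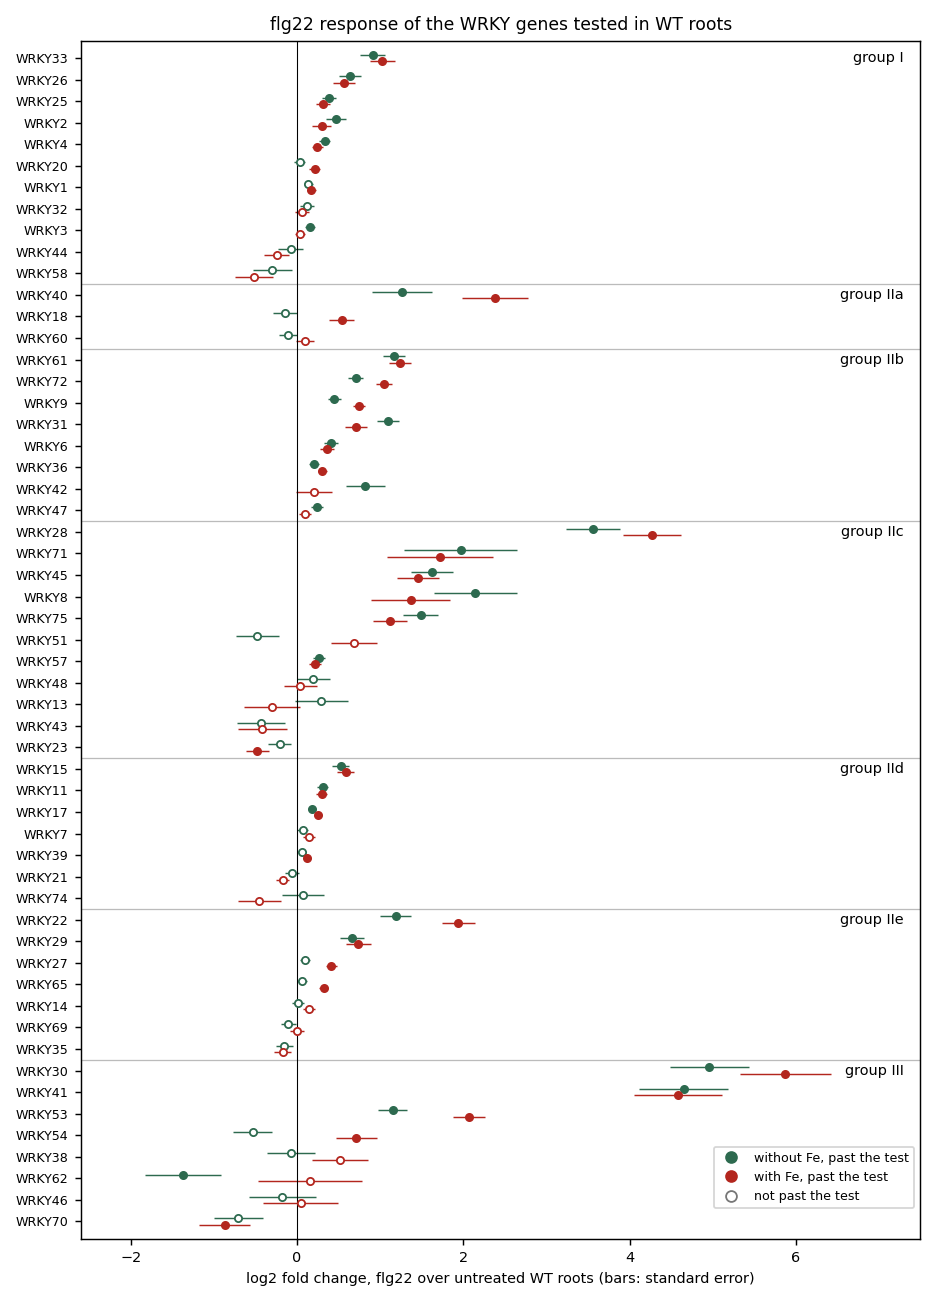
Each row is 1 of the 55 WRKY genes tested, sorted by structural group. The x axis gives its log2 fold change of flg22 over untreated WT roots (bars, approximate standard error from the test; 3 libraries a group). The −Fe value stands above the +Fe value in each row and filled points passed the test; WRKY30, WRKY41 and WRKY28 lie farthest to the right, and 2 members with Fe and 1 without Fe passed the test as lower.

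In Fe-deficient WT roots the same question gave 29 members higher and 1 lower, where 35% of all genes were called, 18.2% as higher and 16.8% as lower. The median log2 fold change was 0.20 over the WRKY genes and 0.00 over all genes. Of the 33 members that rose with Fe, 26 also rose without Fe (78.8% of the 33 and 89.7% of the 29). Over all genes tested, the 2758 that rose in both made up 65.2% of those that rose with Fe and 74.4% of those that rose without Fe. Group IIb had 8 of 8 members higher with all libraries, with a median log2 fold change of 0.58; WRKY36 lost its call without WT −Fe replicate 1 or WT −Fe flg22 replicate 3 (adjusted p up to 0.0916), and WRKY47 without WT −Fe flg22 replicate 3 (adjusted p = 0.0686). The green shoot marker sum was 274.3 CPM with flg22 (223.6 to 366.3), against 173.2 CPM without it (140.7 to 197.1), with 6 of 8 called higher, while 4 of 10 root markers were called lower; their part in the result was not tested.

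The largest rises were again in groups III and IIc. WRKY30 had 17.5, 11.3 and 13.1 CPM in WT −Fe flg22, against 0.354, 0.784 and 0.201 CPM in WT −Fe, again with no overlap. Its log2 fold change was 4.96 ± 0.48 (adjusted p = 2.84e-08, edgeR), and 5.60 without WT −Fe replicate 2. WRKY41 rose by 4.65 ± 0.54, or 5.24 without WT −Fe replicate 3. WRKY28 had 17.9, 12.8 and 14.9 CPM with flg22, against 1.24, 0.882 and 1.74 CPM without it, and rose by 3.56 ± 0.32. WRKY8 rose by 2.14 ± 0.50, WRKY45 by 1.63 ± 0.25 and WRKY75 by 1.49 ± 0.21. WRKY71 rose by 1.97 ± 0.68, a call lost without WT −Fe replicate 1 or 3 or WT −Fe flg22 replicate 3 (adjusted p up to 0.0786).

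Other leading genes had smaller fold changes than with Fe, a difference whose own test is given in the next paragraph. WRKY53 had 14.8, 12.7 and 12.7 CPM in WT −Fe flg22, against 5.26, 5.59 and 7.32 CPM in WT −Fe, and rose by 1.15 ± 0.17. WRKY40 rose by 1.26 ± 0.36, WRKY22 by 1.19 ± 0.19 and WRKY33 by 0.91 ± 0.15 (adjusted p = 6.13e-05, edgeR). WRKY42, which did not pass the test with Fe, had 2.85, 3.39 and 2.57 CPM with flg22, against 1.68, 1.80 and 1.505 CPM without it. Its groups did not overlap and it rose by 0.82 ± 0.23 (adjusted p = 0.00695, edgeR). WRKY18, WRKY60, WRKY46, WRKY54 and WRKY70 had log2 fold changes of −0.14, −0.11, −0.18, −0.53 and −0.71 and did not pass the test. WRKY62, a repressor of basal defence, was the 1 member called lower, at 1.98, 1.62 and 1.66 CPM with flg22 against 1.95, 8.27 and 3.48 CPM without it. Those groups overlapped: the log2 fold change was −1.37 ± 0.45 with all libraries and −0.64 without WT −Fe replicate 2. The call was lost without that library or WT −Fe flg22 replicate 2 or 3 (adjusted p up to 0.313).

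The difference between the flg22 responses without and with Fe was tested directly in WT. No WRKY member passed (edgeR), where 0.246% of all genes did (0.113% higher and 0.133% lower). By limma 0 members were called and by DESeq2 1. Without adjustment, 10 members had a p under 0.05 (edgeR). Such unadjusted counts, here and below, are given without the unadjusted share over all genes and do not set the family apart. The lowest p-values were those of WRKY54, at −1.25 ± 0.34 (adjusted p = 0.157), WRKY27 (AT5G52830), at −0.32 ± 0.09 (adjusted p = 0.164), and WRKY53, at −0.92 ± 0.26 (adjusted p = 0.171). WRKY18 was at −0.68 ± 0.21 (adjusted p = 0.249).

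**Figure D2:**
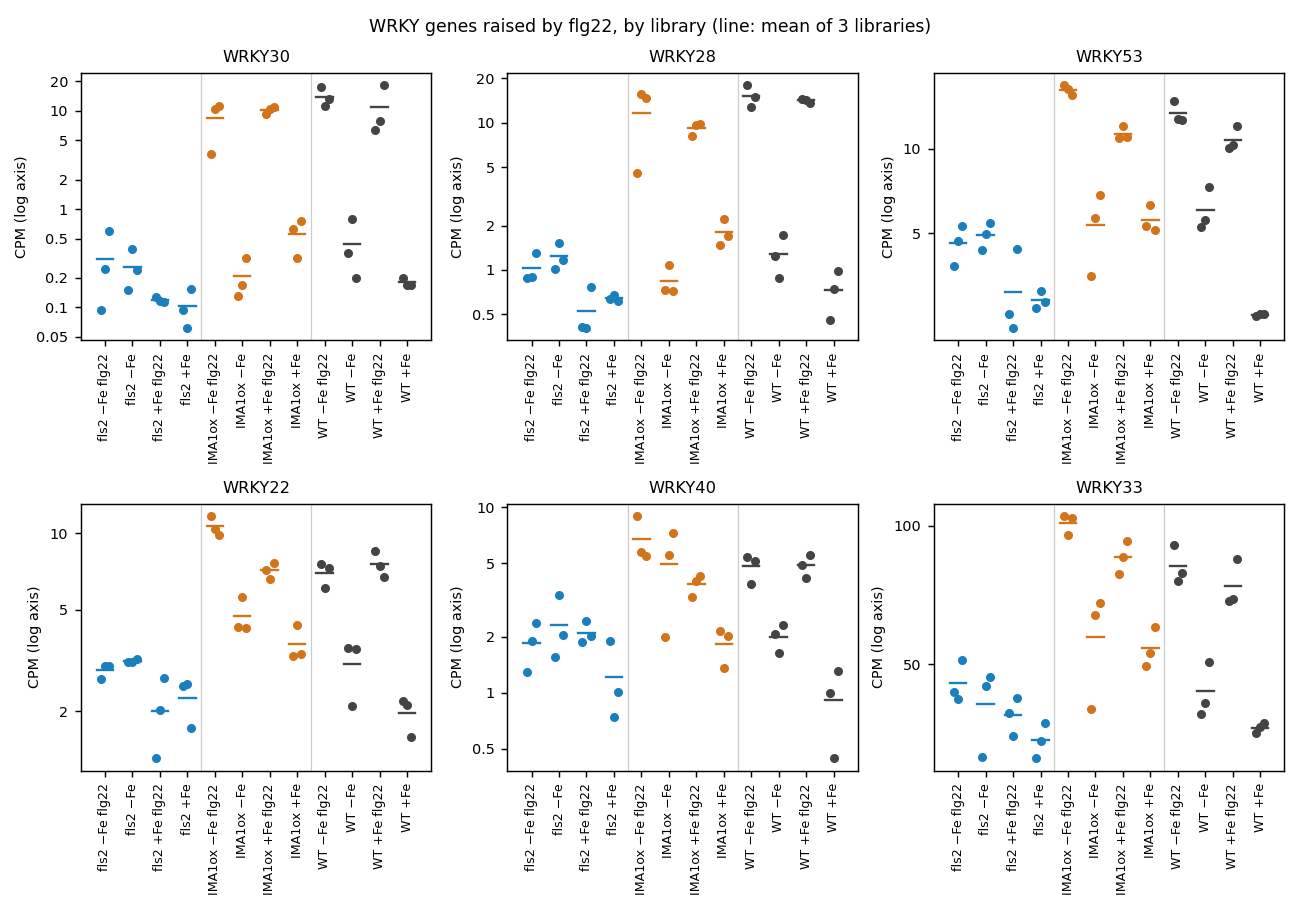
CPM of 6 WRKY genes in every library (log axis; points, libraries; lines, means of 3), in fls2, IMA1ox and WT, each in the order −Fe flg22, −Fe, +Fe flg22, +Fe. In IMA1ox and WT the flg22 libraries of WRKY30 and WRKY28 lie above the untreated ones, and in fls2 flg22 and untreated libraries lie at like heights.

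The fls2 groups served to ask whether these rises need the flagellin receptor. No WRKY member passed the test for flg22 in fls2, either with Fe (0% of all genes called; 2 members with an unadjusted p under 0.05) or without Fe (0% called; 3 members), and limma and DESeq2 called 0 in both. WRKY30 had 0.127, 0.115 and 0.114 CPM in fls2 +Fe flg22, against 0.0949, 0.0614 and 0.154 CPM in fls2 +Fe. WRKY28 had 0.413, 0.403 and 0.769 CPM with flg22, against 0.633, 0.675 and 0.614 CPM without it. WRKY33 had 39.1, 34.8 and 42.1 CPM with flg22, against 31.2, 33.96 and 37.2 CPM without it. Treated and untreated fls2 libraries overlapped for all 3 genes. The approximate 95% interval of the log2 fold change ran from −0.12 to 0.49 for WRKY33 and from −1.25 to 0.71 for WRKY28. It was built from the approximate standard error. None is given for WRKY30, which lay between 0.0614 and 0.154 CPM in these fls2 libraries and is limited by depth. The family sum was 1245 CPM in fls2 +Fe flg22, against 1243 CPM in fls2 +Fe, and the green shoot marker sum was 160.9 CPM against 157.5 CPM.

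Tested as a difference of responses, 22 members responded less in fls2 than in WT with Fe and none more, where 10.4% of all genes were lower and 20.2% were called. Without Fe, 27 members responded less and none more, where 11% of all genes were lower and 21.2% were called. These differences share the WT libraries with the WT responses above, and every one of the 22 and 27 members had risen in WT. With Fe, the difference was −4.53 ± 0.63 for WRKY28, −2.10 ± 0.29 for WRKY22 and −1.97 ± 0.28 for WRKY53, with adjusted p of 2.72e-05, 1.81e-05 and 2.74e-05 (edgeR). WRKY33 differed by −0.84 ± 0.22 (adjusted p = 0.00896, edgeR). WRKY30 differed by −5.69 ± 1.65, or −5.09 without WT +Fe flg22 replicate 3, and lost its call without fls2 +Fe replicate 3 (adjusted p = 0.0957). WRKY41 differed by −3.59 ± 1.20 and WRKY8 by −2.58 ± 0.79. The call of WRKY41 was lost without WT +Fe replicate 3, WT +Fe flg22 replicate 2, fls2 +Fe replicate 1 or 2, or fls2 +Fe flg22 replicate 1 (adjusted p up to 0.207), and its value was −2.99 without fls2 +Fe replicate 2. That of WRKY8 was lost without WT +Fe replicate 1, fls2 +Fe replicate 2 or fls2 +Fe flg22 replicate 2 (adjusted p up to 0.0637).

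Without Fe, WRKY28 differed by −3.83 ± 0.51 (adjusted p = 1.36e-05, edgeR), WRKY75 by −1.70 ± 0.31 and WRKY45 by −1.62 ± 0.37. WRKY30 differed by −4.65 ± 1.03 and WRKY41 by −4.61 ± 1.0; leaving out 1 library moved WRKY30 to as far as −5.47 and WRKY41 to between −5.62 and −3.99, with both calls kept. WRKY33 differed by −0.76 ± 0.22, a call lost without fls2 −Fe replicate 3 (adjusted p = 0.0564). WRKY40 differed by −1.57 ± 0.52 (adjusted p = 0.0325, edgeR), and 7 of the 12 single libraries ended that call when left out: WT −Fe replicates 1 and 2, WT −Fe flg22 replicates 1 and 3, fls2 −Fe replicate 2, and fls2 −Fe flg22 replicates 1 and 2 (adjusted p up to 0.132). In untreated roots no WRKY member differed between fls2 and WT (edgeR), with Fe (0.0197% of all genes called; 0 members with an unadjusted p under 0.05) or without it (0.103% called, 0.00491% as higher and 0.0983% as lower; 5 members).

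**Figure D3:**
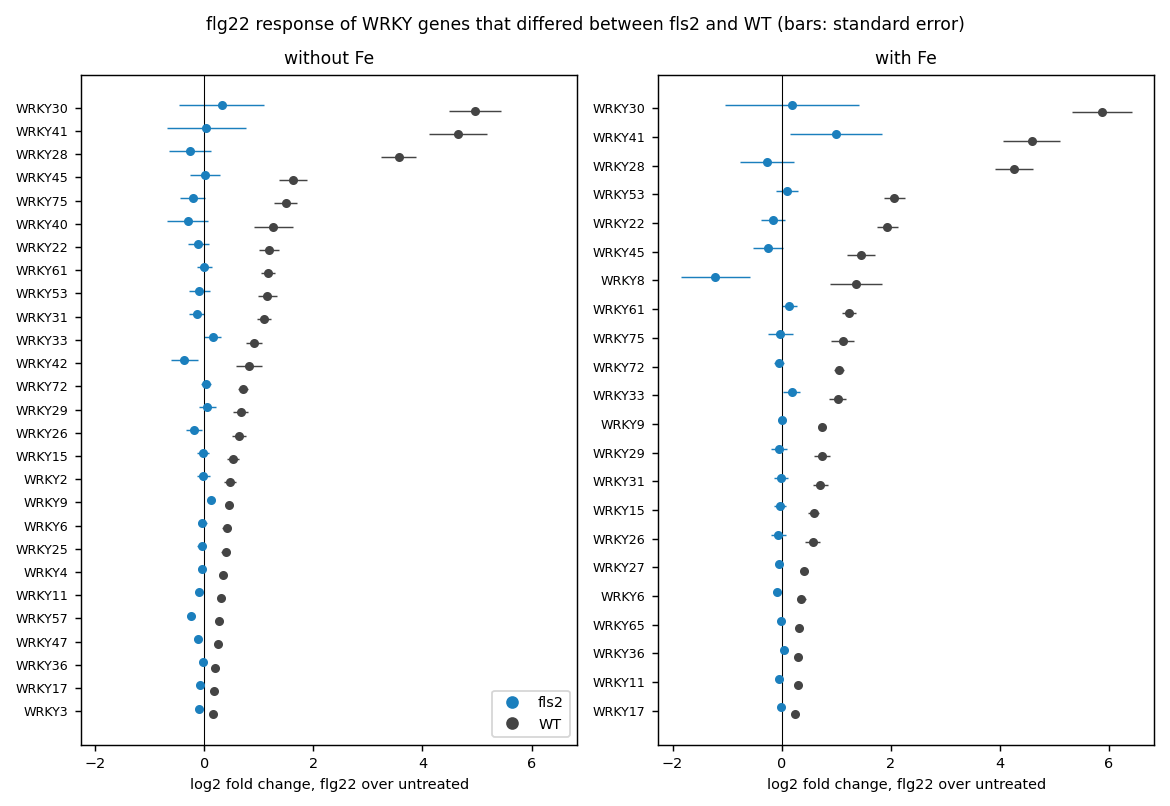
Log2 fold changes of flg22 over untreated roots in fls2 and, below each, in WT (bars, approximate standard error from the test; 3 libraries a group). They are shown for the 27 members without Fe (left) and the 22 members with Fe (right) whose responses differed. The fls2 points lie on both sides of 0 and the WT points lie to the right of them. With Fe, WRKY8 in fls2 lies left of 0 and WRKY41 right of it. Both are low there, with means of 0.255 and 0.0613 CPM per kb untreated and 0.110 and 0.124 with flg22.

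In IMA1ox, flg22 raised 35 members and lowered 1 with Fe, where 43.4% of all genes were called, 23% as higher and 20.4% as lower. Without Fe it raised 36 and lowered 3, where 45.5% were called, 24% as higher and 21.5% as lower. With Fe, 28 of these 35 had also risen in WT (84.8% of the 33 WT members and 80% of the 35). Over all genes tested, the 3049 that rose in both made up 72.1% of those that rose in WT and 65% of those that rose in IMA1ox. Across both genotypes and both Fe supplies, 21 of the 55 members rose in all 4 comparisons (38.2%) and 10 in none (18.2%), against 10.4% and 65.7% of all genes tested. The green shoot marker sum was 200.1 CPM in IMA1ox +Fe flg22 (178.2 to 220.4) against 133.6 CPM in IMA1ox +Fe (124.5 to 151.3), and 185.9 CPM in IMA1ox −Fe flg22 (156.3 to 211.4) against 122.8 CPM in IMA1ox −Fe (113.8 to 132.2). They were called higher for 5 and 4 of 8, and 6 of 10 root markers were called lower in each case; the part of these markers in the result was not tested.

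WRKY30 led again: it had 9.22, 10.53 and 10.9 CPM in IMA1ox +Fe flg22, against 0.623, 0.318 and 0.752 CPM in IMA1ox +Fe. The groups lay far apart, and the log2 fold change was 4.18 ± 0.46 (adjusted p = 4.64e-07, edgeR). WRKY28 had 8.12, 9.65 and 9.81 CPM with flg22, against 1.47, 2.23 and 1.71 CPM without it, and rose by 2.35 ± 0.31. WRKY41 rose by 1.53 ± 0.39, WRKY45 by 1.27 ± 0.24, WRKY75 by 1.05 ± 0.20, WRKY53 by 1.02 ± 0.18, WRKY22 by 0.96 ± 0.18 and WRKY33 by 0.66 ± 0.15. WRKY40 rose by 1.06 ± 0.37, a call lost without IMA1ox +Fe replicate 2 or IMA1ox +Fe flg22 replicate 3 (adjusted p up to 0.0895). WRKY60, the partner of WRKY18 and WRKY40, rose by 0.34 (lost without IMA1ox +Fe replicate 1, adjusted p = 0.0585). WRKY58 (AT3G01080), a repressor of systemic resistance, was the member that fell, by 0.72 on the log2 scale. That call was lost without IMA1ox +Fe replicate 2 or 3 or IMA1ox +Fe flg22 replicate 1 or 3 (adjusted p up to 0.190).

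Without Fe, group III had 7 of 8 members higher, with a median log2 fold change of 1.5. WRKY53 had 16.8, 16.2 and 15.5 CPM in IMA1ox −Fe flg22, against 3.53, 5.69 and 6.84 CPM in IMA1ox −Fe, and rose by 1.60 ± 0.17 (adjusted p = 3.84e-08, edgeR). WRKY38 and WRKY62, repressors of basal defence that act with salicylic acid signalling, rose by 1.40 ± 0.31 and 2.03 ± 0.54. WRKY51 (AT5G64810), of group IIc, had 6.37, 7.23 and 6.50 CPM with flg22, against 2.83, 2.10 and 2.27 CPM without it, and rose by 1.47 ± 0.27 with no overlap. WRKY41 had 312 counts with flg22 against 3 counts without it, a ratio of 102 with a 95% counting interval from 34.5 to 497. WRKY54 rose by 0.87 ± 0.25, a call lost without IMA1ox −Fe flg22 replicate 2 (adjusted p = 0.0588). WRKY58, WRKY23 and WRKY44 fell by 0.87, 0.47 and 0.41 on the log2 scale; the call of WRKY44 was lost without IMA1ox −Fe replicate 1 or 2 or IMA1ox −Fe flg22 replicate 2 (adjusted p up to 0.208).

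IMA1ox −Fe flg22 replicate 1, the library farthest from its group over all genes tested, was also uneven among the WRKY members. The counts that follow were not made over all genes that rose. This library was the lowest of its 3 libraries in 23 of the 36 members that rose and the highest in 8, among them WRKY33, WRKY18, WRKY22, WRKY46 and WRKY53. WRKY30, for example, had 3.61 CPM there against 10.53 and 11.3 CPM in the other libraries, whereas WRKY46 had 8.03 CPM there against 4.96 and 3.96 CPM. WRKY18 and WRKY46 rose by 0.39 and 0.99 with this library. Without it, or without IMA1ox −Fe replicate 1, neither passed the test (adjusted p up to 0.415 for WRKY18 and 0.144 for WRKY46).

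Whether flg22 acted differently in IMA1ox and WT was tested as a difference of responses. With Fe, 3 members responded less in IMA1ox and none more, where 0.865% of all genes were called and 0.467% were lower. They were WRKY41 at −3.06 ± 0.70 (adjusted p = 0.0287), WRKY28 at −1.92 ± 0.48 (adjusted p = 0.0491) and WRKY53 at −1.05 ± 0.26 (adjusted p = 0.0452, edgeR). Without any 1 of the 12 libraries the calls of WRKY28 and WRKY53 were lost (adjusted p up to 0.128 and 0.116). That of WRKY41 was lost in 7 of the 12 cases, without WT +Fe replicates 2 and 3, WT +Fe flg22 replicate 1, IMA1ox +Fe replicates 1 and 3, or IMA1ox +Fe flg22 replicates 1 and 3 (adjusted p up to 0.1). All 3 genes stood higher in untreated IMA1ox than in untreated WT with Fe, and both comparisons share those libraries. Without Fe, the log2 response of 5 members was higher in IMA1ox than in WT and that of none was lower. In that comparison 2.87% of all genes were called and 2.07% were higher. WRKY62 differed by 3.40 ± 0.71, or 2.65 without WT −Fe replicate 2, and WRKY51 by 1.95 ± 0.37 (adjusted p = 0.00571 and 0.00255, edgeR). WRKY54 differed by 1.41 ± 0.34, WRKY65 (AT1G29280) by 0.32 and WRKY39 (AT3G04670) by 0.26. WRKY62, WRKY51 and WRKY54 stood lower in untreated IMA1ox −Fe than in untreated WT −Fe, and both comparisons share those libraries. With flg22, mean CPM per kb went from 4.21 to 1.62 in WT and from 0.493 to 2.06 in IMA1ox for WRKY62. The values were 6.72 to 4.81 and 2.53 to 7.08 for WRKY51, and 8.80 to 6.07 and 2.77 to 5.11 for WRKY54. The WRKY54 call was lost without WT −Fe replicate 2, WT −Fe flg22 replicate 2 or 3, IMA1ox −Fe replicate 2 or 3, or IMA1ox −Fe flg22 replicate 2 (adjusted p up to 0.0764). Those of WRKY65 and WRKY39 were lost without WT −Fe flg22 replicate 2, IMA1ox −Fe replicate 3 or IMA1ox −Fe flg22 replicate 2 (adjusted p up to 0.0734 and 0.085).

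Fe deficiency alone moved fewer members. In untreated WT roots, 9 members were higher and 3 lower without Fe than with it, where 5.97% of all genes were called, 3.12% as higher and 2.85% as lower. Group III held 4 of the 9, and its 8 tested members had a median log2 fold change of 1.24. WRKY53 had 5.26, 5.59 and 7.32 CPM in WT −Fe, against 2.54, 2.59 and 2.58 CPM in WT +Fe. No library overlapped, and the log2 fold change was 1.23 ± 0.20 (adjusted p = 0.000116, edgeR). WRKY54 had 9.63, 15.0 and 13.2 CPM without Fe, against 5.05, 4.70 and 6.205 CPM with it, and rose by 1.24 ± 0.24 (adjusted p = 0.0016). WRKY38 had 3.84, 8.73 and 6.39 CPM without Fe, against 2.08, 2.08 and 1.95 CPM with it, and rose by 1.63 ± 0.32 (adjusted p = 0.0016). In both genes every −Fe library was above every +Fe library. WRKY62 had 1.95, 8.27 and 3.48 CPM without Fe, against 0.856, 0.749 and 0.283 CPM with it, and rose by 2.86 ± 0.52, or 2.11 without WT −Fe replicate 2. The groups did not overlap but the −Fe libraries spread widely.

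Outside group III, WRKY51 rose by 1.27 ± 0.27 and WRKY18 by 0.69 ± 0.15 in Fe-deficient WT roots. WRKY72, WRKY9 (AT1G68150) and WRKY65 rose by 0.38, 0.31 and 0.22. These calls were lost without WT +Fe replicate 1 for WRKY72, without WT +Fe replicate 2 or WT −Fe replicate 3 for WRKY9, and without WT +Fe replicate 1 or WT −Fe replicate 1 or 3 for WRKY65 (adjusted p up to 0.0749, 0.0868 and 0.0595). WRKY42, which activates the phosphate transporter gene PHT1;1, had 1.68, 1.80 and 1.505 CPM without Fe, against 2.77, 3.20 and 3.14 CPM with it. Its groups did not overlap and the log2 fold change was −0.87 ± 0.23 (adjusted p = 0.0206, edgeR). The call was lost without WT +Fe replicate 2 or 3 or WT −Fe replicate 1 or 3 (adjusted p up to 0.0748). WRKY57 (AT1G69310) and WRKY3 (AT2G03340) fell by 0.25 and 0.23. The WRKY57 call was lost without WT +Fe replicate 2 or 3 or WT −Fe replicate 2 or 3, and that of WRKY3 without WT +Fe replicate 2 or 3 or WT −Fe replicate 3 (adjusted p up to 0.152 and 0.118). WRKY40, WRKY22 and WRKY46 had log2 fold changes of 1.10, 0.64 and 0.69 and did not pass the test. WT −Fe replicate 2 was the highest of its group in 5 of the 9 members that rose, namely WRKY18, WRKY51, WRKY38, WRKY54 and WRKY62. The same count was not made over all genes that rose.

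With flg22 present, no member passed the test between WT −Fe flg22 and WT +Fe flg22 (edgeR; 0.138% of all genes called; 5 members with an unadjusted p under 0.05; 0 by limma and 0 by DESeq2). WRKY38 had a log2 fold change of 1.03 ± 0.31 (adjusted p = 0.271) and WRKY53 of 0.32 ± 0.17 (adjusted p = 0.503).

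In untreated fls2 roots, Fe deficiency raised 2 members and lowered 2, where 2.12% of all genes were called, 1.15% as higher and 0.968% as lower. WRKY53 rose by 0.76 ± 0.20 (adjusted p = 0.0317) and WRKY42 fell by 0.85 ± 0.23 on the log2 scale (adjusted p = 0.0445, edgeR). Both calls were lost without any 1 of the fls2 +Fe replicates or fls2 −Fe replicate 2 or 3 (adjusted p up to 0.134 for WRKY53 and 0.175 for WRKY42). WRKY65, which was higher, lost its call without the same 5 libraries (adjusted p up to 0.185), and WRKY57, which was lower, without fls2 +Fe replicate 1 or 2 or fls2 −Fe replicate 1 or 2 (adjusted p up to 0.149). WRKY54 and WRKY62 had log2 fold changes of 0.78 (adjusted p = 0.114) and 1.54 (adjusted p = 0.103). The difference between fls2 and WT in this response was not tested.

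In untreated IMA1ox roots no group III member was called higher. Fe deficiency raised 3 members and lowered 4, where 4.29% of all genes were called, 1.9% as higher and 2.39% as lower, and the WRKY median was −0.06. WRKY51 had 2.83, 2.10 and 2.27 CPM in IMA1ox −Fe, against 4.104, 5.21 and 6.43 CPM in IMA1ox +Fe. The −Fe libraries were all below the +Fe ones, and the log2 fold change was −1.12 ± 0.27 (adjusted p = 0.0141, edgeR). That call was lost without IMA1ox +Fe replicate 3 or IMA1ox −Fe replicate 2 or 3 (adjusted p up to 0.0989). WRKY31 (AT4G22070) and WRKY6 fell by 0.66 and 0.34 on the log2 scale, the call of WRKY6 being lost without IMA1ox +Fe replicate 3 (adjusted p = 0.086). WRKY41 had 3 counts without Fe, against 73 counts with it, a ratio of 0.0403 with a 95% counting interval from 0.00812 to 0.123. WRKY58 had 1.88, 1.35 and 1.55 CPM without Fe, against 0.594, 0.868 and 0.692 CPM with it, and rose by 1.16 on the log2 scale with no overlap. WRKY40 rose by 1.41 ± 0.36, but its groups overlapped and the call was lost without IMA1ox +Fe replicate 2 or 3 or IMA1ox −Fe replicate 2 or 3 (adjusted p up to 0.204). WRKY69 (AT3G58710) rose by 0.34, a call lost without IMA1ox +Fe replicate 1 or 2 or IMA1ox −Fe replicate 1 or 3 (adjusted p up to 0.104).

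The difference between these Fe responses, IMA1ox minus WT, passed the test for 11 members, 2 higher and 9 lower, where 4.02% of all genes were called, 1.71% as higher and 2.31% as lower. WRKY51 differed by −2.39 ± 0.39 (adjusted p = 0.000303), WRKY38 by −2.32 ± 0.46 (adjusted p = 0.0026) and WRKY53 by −1.30 ± 0.27 (adjusted p = 0.00361, edgeR). WRKY62 differed by −3.65 ± 0.79, or −2.90 without WT −Fe replicate 2. WRKY54 differed by −1.42 ± 0.36, a call lost without WT −Fe replicate 2, IMA1ox +Fe replicate 2 or IMA1ox −Fe replicate 2 or 3 (adjusted p up to 0.0685). WRKY58 differed the other way, by 1.34 ± 0.33 (adjusted p = 0.0139, edgeR). WRKY41 differed by −4.39 ± 1.29 (adjusted p = 0.0479), a value that rests on 3 counts in IMA1ox −Fe; it moved between −5.32 and −3.80, and its call was lost without any 1 of 10 of the 12 libraries (adjusted p up to 0.215), those that kept it being IMA1ox +Fe replicate 2 and IMA1ox −Fe replicate 2.

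**Figure D4:**
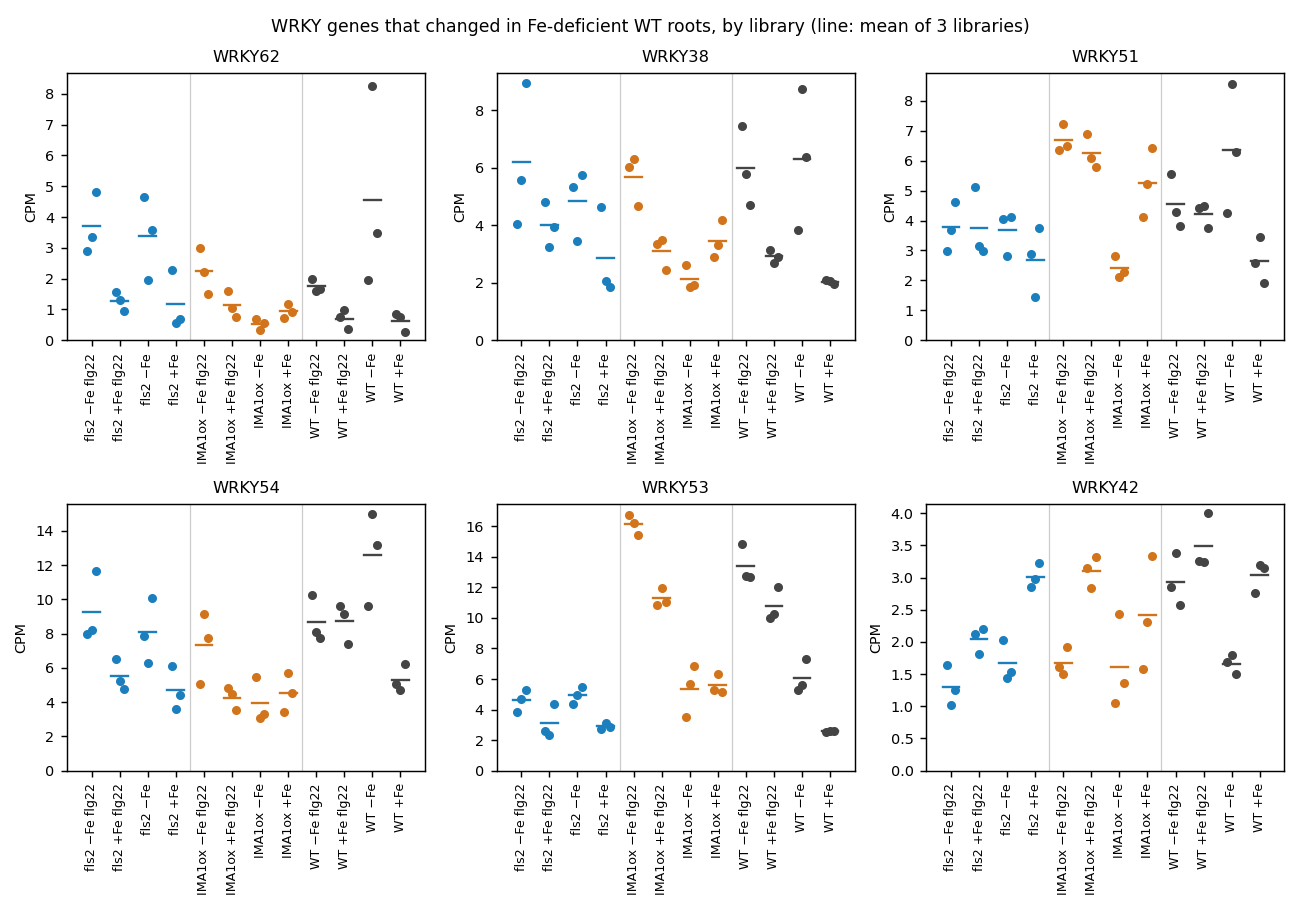
CPM of 6 WRKY genes in every library (linear axis from 0; points, libraries; lines, means of 3), in the order −Fe flg22, +Fe flg22, −Fe, +Fe within each genotype. In untreated WT the −Fe libraries of WRKY62, WRKY38, WRKY51, WRKY54 and WRKY53 lie above the +Fe ones and those of WRKY42 lie below.

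The last comparisons set IMA1ox beside WT under each treatment. With Fe and no flg22, 14 members were higher and 3 lower in IMA1ox, where 16.7% of all genes were called, 7.09% as higher and 9.63% as lower. The median log2 difference was 0.14 over the WRKY genes and 0.01 over all genes. The green shoot marker sum was 133.6 CPM in IMA1ox against 191.4 CPM in WT, with 2 of 8 markers called lower, and 3 of 10 root markers were called lower; their part in the result was not tested. WRKY53 had 5.29, 6.31 and 5.14 CPM in IMA1ox, against 2.54, 2.59 and 2.58 CPM in WT. The groups did not overlap, and the log2 difference was 1.12 ± 0.20 (adjusted p = 0.000164, edgeR). WRKY41 had 0.764, 0.521 and 0.842 CPM in IMA1ox, against 0.143, 0.136 and 0.0283 CPM in WT, a log2 difference of 2.77 ± 0.60 (adjusted p = 0.00154). WRKY22 was higher by 0.90, WRKY18 by 0.58 and WRKY33 by 0.57 ± 0.15, the call of WRKY33 being lost without IMA1ox +Fe replicate 3 (adjusted p = 0.0641). WRKY28 was higher by 1.3 ± 0.40, and that call was lost without WT +Fe replicate 1 or 2 or IMA1ox +Fe replicate 2 or 3 (adjusted p up to 0.117).

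On the lower side, WRKY69 had a log2 difference of −0.43 ± 0.09 (adjusted p = 0.0012, edgeR), with 30.5 CPM in IMA1ox and 40.95 CPM in WT as means. WRKY58 had 0.594, 0.868 and 0.692 CPM in IMA1ox, against 1.54, 1.43 and 1.53 CPM in WT, a log2 difference of −1.06 ± 0.24 (adjusted p = 0.00226) with no overlap. It was also lower in IMA1ox when Fe and flg22 were both present, by −1.26 ± 0.27 (adjusted p = 0.00181). The number of members called with Fe and no flg22 was 10 without WT +Fe replicate 3 or IMA1ox +Fe replicate 3, and 11 without WT +Fe replicate 1 or IMA1ox +Fe replicate 2, against 17 with all libraries.

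WRKY46 and WRKY23 were each higher in IMA1ox in 3 of these 4 comparisons. WRKY46, which represses the vacuolar Fe transporter-like gene VTL1 and so affects Fe translocation, had 3.15, 4.11 and 3.41 CPM in IMA1ox +Fe flg22, against 1.16, 1.13 and 0.737 CPM in WT +Fe flg22. It had 8.03, 4.96 and 3.96 CPM in IMA1ox −Fe flg22, against 1.24, 1.46 and 1.51 CPM in WT −Fe flg22. The genotypes did not overlap in either comparison, and the log2 differences were 1.81 ± 0.40 (adjusted p = 0.00233) and 2.01 ± 0.37 (adjusted p = 0.000558, edgeR). Without flg22 it was higher with Fe by 1.19 ± 0.41 (adjusted p = 0.042), a call lost without any 1 of the 6 libraries (adjusted p up to 0.157), and its libraries overlapped without Fe. WRKY23 had 19.8, 26.1 and 18.5 CPM in IMA1ox +Fe flg22, against 11.1, 10.8 and 10.8 CPM in WT +Fe flg22. It had 18.9, 24.9 and 22.4 CPM in IMA1ox −Fe, against 13.4, 12.1 and 11.9 CPM in WT −Fe. Its log2 differences were 0.98 ± 0.14 (adjusted p = 1.39e-05) and 0.82 ± 0.14 (adjusted p = 0.000172), and 0.56 in the −Fe flg22 comparison (adjusted p = 0.00822, edgeR).

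With Fe and flg22, 9 members were higher and 3 lower in IMA1ox, where 14.5% of all genes were called, 7.05% as higher and 7.44% as lower. WRKY54 had 4.80, 4.45 and 3.52 CPM in IMA1ox, against 9.62, 9.14 and 7.40 CPM in WT, a log2 difference of −1.03 ± 0.25 (adjusted p = 0.00585, edgeR) with no overlap. Without Fe and without flg22, 5 members were higher and 6 lower, where 11.9% of all genes were called, 4.15% as higher and 7.76% as lower. The 4 largest of the 6 were the genes that Fe deficiency had raised most in WT, and both comparisons share the WT −Fe libraries. WRKY54 had 5.496, 3.08 and 3.31 CPM in IMA1ox −Fe, against 9.63, 15.0 and 13.2 CPM in WT −Fe, a log2 difference of −1.66 ± 0.25. WRKY38 differed by −1.55 ± 0.32, WRKY51 by −1.40 ± 0.27 and WRKY62 by −3.05 ± 0.52, or −2.30 without WT −Fe replicate 2. WRKY40 was higher by 1.29 ± 0.36, with overlapping groups and a call lost without WT −Fe replicate 1 or 2 or IMA1ox −Fe replicate 2 or 3 (adjusted p up to 0.158). The number of members called was 6 without IMA1ox −Fe replicate 3, against 11. WRKY41 had 3 counts in IMA1ox −Fe, against 9 in WT −Fe, a ratio of 0.299 with a 95% counting interval from 0.0521 to 1.20. Without Fe and with flg22, 7 members were higher and 2 lower in IMA1ox, where 10.3% of all genes were called, 4.44% as higher and 5.88% as lower, and 5 were called without WT −Fe flg22 replicate 2.

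WRKY31, a group IIb gene, was lower in IMA1ox in 3 of the 4 comparisons. With Fe and flg22 it had 16.8, 18.7 and 18.8 CPM in IMA1ox, against 22.2, 25.3 and 25.7 CPM in WT, a log2 difference of −0.43 ± 0.13 (adjusted p = 0.0228). Without Fe and with flg22 it had 13.2, 18.2 and 20.7 CPM in IMA1ox, against 27.2, 25.1 and 25.9 CPM in WT, a log2 difference of −0.58 ± 0.13 (adjusted p = 0.00287, edgeR). The genotypes did not overlap in either. Without Fe and flg22 the log2 difference was −0.52 (adjusted p = 0.0145). The call with Fe and flg22 was lost without WT +Fe flg22 replicate 2 or 3 or IMA1ox +Fe flg22 replicate 1 or 2 (adjusted p up to 0.0937), and that without either was lost without WT −Fe replicate 1 or IMA1ox −Fe replicate 1 or 3 (adjusted p up to 0.0636).

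In the same 4 comparisons the green shoot markers were called lower in IMA1ox for 2 of 8 with Fe, 4 of 8 with Fe and flg22, 3 of 8 without Fe, and 5 of 8 without Fe with flg22. The root markers were called lower for 3, 4, 6 and 6 of 10. Of all genes, 9.63%, 7.44%, 7.76% and 5.88% were called lower. The root marker sums in IMA1ox and WT were 253.9 and 287.3 CPM with Fe, and 199.8 and 238.7 CPM with Fe and flg22. They were 219.9 and 246.3 CPM without Fe with flg22. Without Fe and flg22 the sum was not lower, at 307.8 CPM in IMA1ox (295.5 to 316.4) and 301.5 CPM in WT (278.9 to 335.8). The part of either list in these WRKY differences was not tested.

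**Figure D5:**
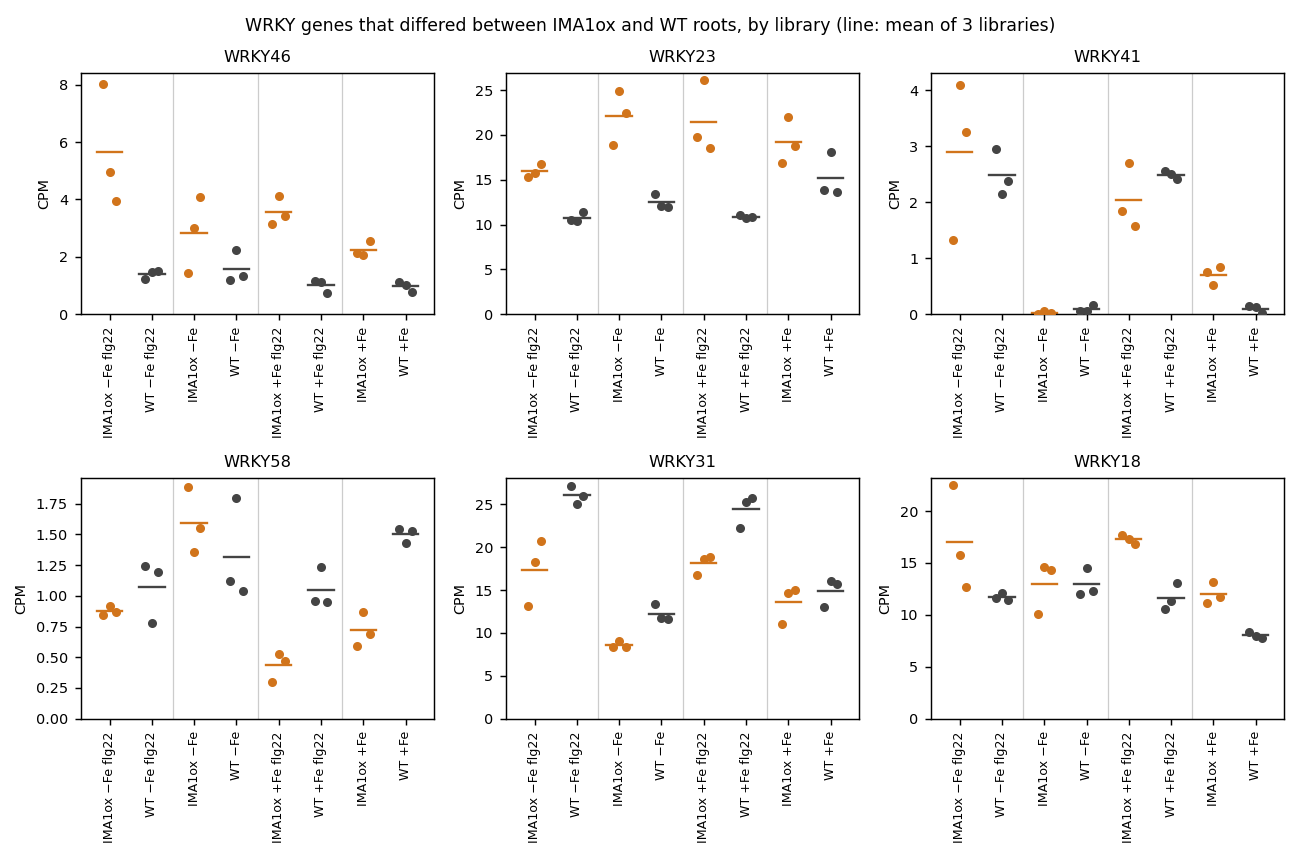
CPM of 6 WRKY genes in every library (linear axis from 0; points, libraries; lines, means of 3), with IMA1ox left of WT in each of the treatments −Fe flg22, −Fe, +Fe flg22 and +Fe. WRKY46 and WRKY23 lie higher in IMA1ox with flg22, and WRKY31 lies lower.

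Genes that act before, with or after the WRKY proteins were followed as 3 lists. For flg22 in WT +Fe, 20.8% of all genes rose and 19.4% fell. Among 7 kinases described to phosphorylate WRKY proteins, flg22 in WT +Fe raised 2 and lowered 1; MPK3, the flg22-activated MAP kinase, rose by 0.50 ± 0.07 on the log2 scale and the calcium-dependent kinase CPK6 fell by 0.14. Among 8 VQ proteins, small partners that bind WRKY domains, 5 rose and none fell, with a median log2 fold change of 0.43. They were SIB1, a partner of WRKY33, at 2.78 ± 0.34, JAV1 at 0.94, MKS1, which links MPK4 to WRKY33, at 0.50, VQ9 at 0.37 and MVQ1 at 0.21. Among 11 described targets, 3 rose and 1 fell: FRK1, the flg22-induced receptor kinase gene downstream of WRKY22 and WRKY29, by 6.26 ± 0.68, the ethylene synthesis gene ACS2 by 1.38 ± 0.31, and PHO1 by 0.60 ± 0.09, while the root hair patterning gene GL2 fell by 1.15 on the log2 scale. The 3 of 7 kinases and 4 of 11 targets called lie near the 40.1% of all genes called. GL2 is also 1 of the 10 root cell type markers, whose summed level was 238.7 CPM with flg22 against 287.3 CPM without it.

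In fls2 no gene of the 3 lists passed the test for flg22. Without Fe, where 18.2% of all genes rose, flg22 in WT raised 1 of 7 kinases, 4 of 8 VQ genes and 4 of 11 targets, with MPK3 at 0.20, SIB1 at 1.88, FRK1 at 6.09 and PHO1 at 0.27. VTL1, the described target of WRKY46, rose there by 0.98, and GL2 fell by 1.24 on the log2 scale. In IMA1ox, flg22 raised 6 of 8 VQ genes both with and without Fe, where 23% and 24% of all genes rose, and MPK3 rose by 0.61 and 0.67. FRK1 rose by 3.59 with Fe and 5.78 without Fe. In IMA1ox −Fe flg22, FRK1 had 2.14 CPM in replicate 1, against 27.9 and 24.3 CPM in the other replicates.

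Under Fe deficiency, VTL1 fell by 1.89 on the log2 scale in WT, 1.94 in fls2 and 1.89 in IMA1ox. In untreated Fe-sufficient roots it was higher in IMA1ox than in WT by 2.29. SIB1, VQ10 and the camalexin gene PAD3, a target of WRKY33, were higher there by 1.16, 2.15 and 1.44. In that comparison 7.09% of all genes were called higher and 9.63% lower. In IMA1ox, Fe deficiency lowered VQ10 and PAD3, which fell by 2.54 and 1.97 on the log2 scale, where 1.9% of all genes rose and 2.39% fell. The genes of this paragraph were picked from the 3 lists. How many members of each list were called in these comparisons is not given here.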

How the data were processed

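RNA from pooled roots of 36 libraries was sequenced. Raw read counts per gene locus were deposited by the authors. Of 24532 loci, 1161 had no count. The second deposited table, CPM values treated here as signal, equals those counts divided by library totals and a further factor of 0.97 to 1.05; it served only an alternative fit. STAR 2.7.0a, edgeR 3.36.0 and the TAIR10 build are named, without roles, per the submitters' processing notes. The counting program and its strand setting are not given in the sources used here, so reads shared with overlapping or antisense genes cannot be told apart.

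Counts were analysed in R 4.3.3 with edgeR 4.0.16: filterByExpr at a minimum count of 10 (20354 genes tested), trimmed-mean scaling (factors 0.967 to 1.05), 1 mean per group over all 36 libraries, robust quasi-likelihood fit and F-test, and Benjamini-Hochberg adjustment over all genes tested, called under 0.05. The 22 comparisons were 16 between pairs of groups and 6 differences of responses. The fit was tested on simulated data. Alternatives were relative log expression scaling, library totals, other filters, limma 3.58.1 on log2 of the CPM table plus 1, DESeq2 1.42.0, a replicate block, only the groups compared, a 2-fold minimum, and each library left out. Intervals on count ratios cover counting error only. Standard errors were not taken from the fitted coefficients. Each is the absolute log2 value divided by the square root of its F statistic. They can be unstable where the log2 value is small, as for WRKY71 at 0.03 ± 1.75 (flg22 without Fe, IMA1ox minus WT). Intervals on log2 values were built from these errors and are approximate.

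Named genes were, for flg22 in WT, the 12 largest rises and 6 largest falls called, elsewhere the 4 largest each way, plus a fixed set of 20 members and those called in a difference of responses. Outside that rule, and named after their values were seen, are WRKY15, WRKY26, WRKY27, WRKY36, WRKY38, WRKY47 and WRKY62 for flg22 in WT, WRKY38 for flg22 in IMA1ox, WRKY9, WRKY65 and WRKY72 for Fe deficiency in WT, WRKY38 and WRKY62 where given as not past the test, and WRKY31 for IMA1ox against WT without Fe. Members, lists and rule were chosen with earlier results of these data known. Protein sequences were not used here; promoters and coding signatures were read from the TAIR10.1 assembly and its annotation. CPM per kb divides by annotated transcript length.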

Additional observations from a re-analysis of the deposited data

Results flagged for a closer look

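The results listed here are those where the response of one genotype differed from that of another by a test of the difference itself. For flg22 with Fe, fls2 minus WT, 22 members differed, among them WRKY30 at −5.69, WRKY28 at −4.53, WRKY41 at −3.59, WRKY8 at −2.58, WRKY22 at −2.10, WRKY53 at −1.97 and WRKY33 at −0.84 on the log2 scale. For flg22 without Fe, fls2 minus WT, 27 differed, among them WRKY30 at −4.65, WRKY41 at −4.61, WRKY28 at −3.83, WRKY75 at −1.70, WRKY45 at −1.62, WRKY40 at −1.57 and WRKY33 at −0.76. With 1 of the 12 libraries left out, the calls with Fe were lost in 5 cases for WRKY41, 3 for WRKY8 and 1 for WRKY30. Of the members not named above, WRKY26 lost its call in 6 cases and WRKY36 in 1. Those without Fe were lost in 7 cases for WRKY40 and 1 for WRKY33. Calls without Fe were also lost for WRKY3 (9 cases), WRKY36 (8), WRKY29 (7), WRKY9 (6), WRKY2 (4) and WRKY25 (1). The number of members called ran from 19 to 24 with Fe and from 20 to 27 without Fe.

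For flg22 with Fe, IMA1ox minus WT, 3 members differed: WRKY41 at −3.06, WRKY28 at −1.92 and WRKY53 at −1.05. With 1 of the 12 libraries left out, the calls of WRKY28 and WRKY53 were lost in all 12 cases and that of WRKY41 in 7. For flg22 without Fe, IMA1ox minus WT, 5 differed: WRKY62 at 3.40, WRKY51 at 1.95, WRKY54 at 1.41, WRKY65 at 0.32 and WRKY39 at 0.26. Here the call of WRKY54 was lost in 6 cases and those of WRKY65 and WRKY39 in 3 each.

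For Fe deficiency without flg22, IMA1ox minus WT, 11 members differed. They were WRKY41 at −4.39, WRKY62 at −3.65, WRKY51 at −2.39, WRKY38 at −2.32, WRKY54 at −1.42, WRKY58 at 1.34, WRKY53 at −1.30, WRKY72 at −0.45, WRKY9 at −0.44, WRKY3 at 0.35 and WRKY27 at −0.33. With 1 of the 12 libraries left out, the calls of WRKY41 and WRKY54 were lost in 10 and 4 cases. In the same way, the call of WRKY72 was lost in 9 cases, that of WRKY27 in 8, that of WRKY9 in 4 and that of WRKY3 in 3 (adjusted p up to 0.158, 0.098, 0.0644 and 0.0562). WRKY72 lost it without WT +Fe replicate 1 or 2, WT −Fe replicate 2 or 3, IMA1ox +Fe replicate 2 or 3, or any 1 of the IMA1ox −Fe replicates. WRKY27 lost it without WT +Fe replicate 1 or 3, WT −Fe replicate 1 or 2, IMA1ox +Fe replicate 2, or any 1 of the IMA1ox −Fe replicates. WRKY9 lost it without WT +Fe replicate 2, WT −Fe replicate 3, IMA1ox +Fe replicate 3 or IMA1ox −Fe replicate 3, and WRKY3 without WT −Fe replicate 3, IMA1ox +Fe replicate 3 or IMA1ox −Fe replicate 2.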

How the results depend on the processing

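Over 280 calls of a member in a comparison, 181 were kept under every alternative except the 2-fold minimum, and 0 changed direction. The 2-fold minimum is counted separately below. At a minimum of 5 CPM, only 243 of the 280 calls had a value, and the rest were not counted as lost there. Fits of only the groups compared lost 45 calls, and leaving out 1 library lost 348 of 2088. Without WT −Fe replicate 3 and IMA1ox −Fe flg22 replicate 1, a choice made after seeing the data, 18 calls were lost. Members under about 1 CPM, such as WRKY71, WRKY8, WRKY30 and WRKY41 without flg22, are limited by depth.

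Asking also for a 2-fold change left 13 of 35 members for flg22 in WT with Fe, 13 of 30 without Fe, 5 of 12 for Fe deficiency in WT, 0 of 4 in fls2 and 4 of 7 in IMA1ox. It left 7 of 36 for flg22 in IMA1ox with Fe and 15 of 39 without Fe. For IMA1ox against WT it left 5 of 17 with Fe, 3 of 12 with Fe and flg22, 5 of 11 without Fe and 1 of 9 without Fe with flg22. For differences of responses it left 10 of 22 and 11 of 27 in fls2 with and without Fe, 3 of 5 for flg22 without Fe in IMA1ox, and 7 of 11 for Fe deficiency in IMA1ox.

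With only the groups compared, 5 of 12 remained counted for Fe deficiency in WT, 5 of 11 for IMA1ox against WT without Fe, and 1 of 5 for the flg22 difference without Fe in IMA1ox. Fe deficiency in fls2 gave 2 members at a minimum of 5 CPM and 7 by DESeq2, against 4. DESeq2 gave 1, against 0, for the flg22 difference between Fe supplies in WT. For the flg22 difference with Fe in IMA1ox, DESeq2 gave 6 and limma 0, against 3.

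With each library left out, 138 of 168 counts stayed within 1.5 times. The others came from Fe deficiency in fls2 (0 to 4 members; 0 without fls2 +Fe or −Fe replicate 2), Fe deficiency in IMA1ox (4 to 7), IMA1ox against WT with Fe (10 to 16), without Fe (6 to 11) and without Fe with flg22 (5 to 9), and the flg22 difference between Fe supplies in WT (0 to 1). They also came from the IMA1ox minus WT differences for flg22 with Fe (0 to 3) and without Fe (2 to 7) and for Fe deficiency (6 to 10).

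What the replicate numbers mean is not given in the sources used here, and whether they pair the samples was not settled. Over 198 pairs with the same number, the correlation of deviations from group means ran from −0.277 to 0.332, and 36 were over 0.1. Of 36 libraries, 16 correlated best with their own number. With the number as a replicate block, 35 members were called for flg22 in WT with Fe, 30 without Fe, and 12 for Fe deficiency in WT, as without it; 6 of the 280 calls were lost.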
